A study of Mus musculus with 115 samples.

Results

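Tgm4, 9530053A07Rik, Sbp, Msmb, Spink1, Defb50, Acpp, Tmprss2 and Fkbp5 were followed as secretory and androgen-target genes of the mouse prostate. They were chosen by name, with earlier results of these data known. They make up 9 of the 45699 genes in the table, and all 9 are listed there. Total RNA came from prostate tissue of transgene-positive (TRAMP x WSB/EiJ) F2 mice. The libraries, each labelled with a mouse, form 1 group with no treatment and no control. TRAMP mice carry a viral T antigen oncogene under a minimal probasin promoter, which responds to androgen, so the oncogene itself depends on androgen, and all libraries share it. WSB/EiJ, an inbred strain, descends from wild mice, and each F2 mouse holds its own mixture of WSB and C57BL/6 J alleles. Per the study's methods, RNA of small prostates was taken from the ventral prostate, and the labels do not give the sampled region of a library. Neither age nor tumor burden was used here.

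The mouse prostate has ventral, lateral, dorsal and anterior lobes, and luminal cells of each lobe secrete their own set of proteins into the seminal fluid. Testosterone and its reduced form bind the androgen receptor, which enters the nucleus, binds DNA and raises transcription of secretory genes and of other targets such as Tmprss2 and Fkbp5. Neuroendocrine prostate tumors, which arise in TRAMP mice, lose luminal secretion and express granins such as Chga. Mki67, a nuclear protein of dividing cells, marks proliferation.

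Expression was given in TPM, transcript abundance corrected for length and scaled so that each library has an equal sum, which keeps no sequencing depth. Relations were tested on log2(TPM + 1), which understates changes of genes near 0. The first principal component held 48.7% of the variance over the 14623 genes whose mean was 1 TPM or higher and separated the libraries into 79 and 36. Chga was at 0.06 to 4.84 TPM in the 79 libraries and at 0.15 to 479 TPM in the 36, and Mki67 at 0.39 to 25.7 TPM and 20 to 144 TPM. The members enter this component, so the parts were described and not tested against each other. Mouse numbers under 2000 were borne by 3 of the 79 and 21 of the 36 libraries, so mouse number and part overlap. The labels do not say what the numbers mark. As to the labelled tissue, the prostate transcription factor Hoxb13 reached 1 TPM in 110 libraries, while 9 seminal vesicle genes summed to between 1.53 and 175187 TPM, with a median of 80.4 TPM. The 20 most abundant genes took 48.9% to 81.8% of TPM, which moves the TPM of all other genes. In bulk tissue, fewer luminal cells and less RNA per cell cannot be told apart.

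The members together took from 0.001345% to 16.9% of the TPM of a library, with a median of 2.15%. 9530053A07Rik, a gene related to the mucus protein gene Fcgbp, was the most abundant member in 59 libraries, Defb50 in 20, Sbp and Fkbp5 in 13 each, and Spink1 and Tmprss2 in 5 each. By median TPM, which is comparable between genes, the order was 9530053A07Rik, Tgm4, Defb50, Msmb, Tmprss2, Fkbp5, Spink1, Sbp and Acpp. 9530053A07Rik exceeded Tgm4 in 93.04% of libraries and Defb50 exceeded Msmb in 99.1%. Other neighbours kept their order less often. Tgm4 was above Defb50 in 62.6% of libraries, Msmb above Tmprss2 in 68.7%, Tmprss2 above Fkbp5 in 61.7%, Fkbp5 above Spink1 in 64.3%, Spink1 above Sbp in 58.3% and Sbp above Acpp in 75.7%. Of the 9 members, 8 reached 1 TPM in at least 50% of libraries. Acpp did not, and with a mean of 0.756 TPM it also stayed under the filter of 1 TPM that the tests below used, so 8 members were tested.

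**Figure D1:**
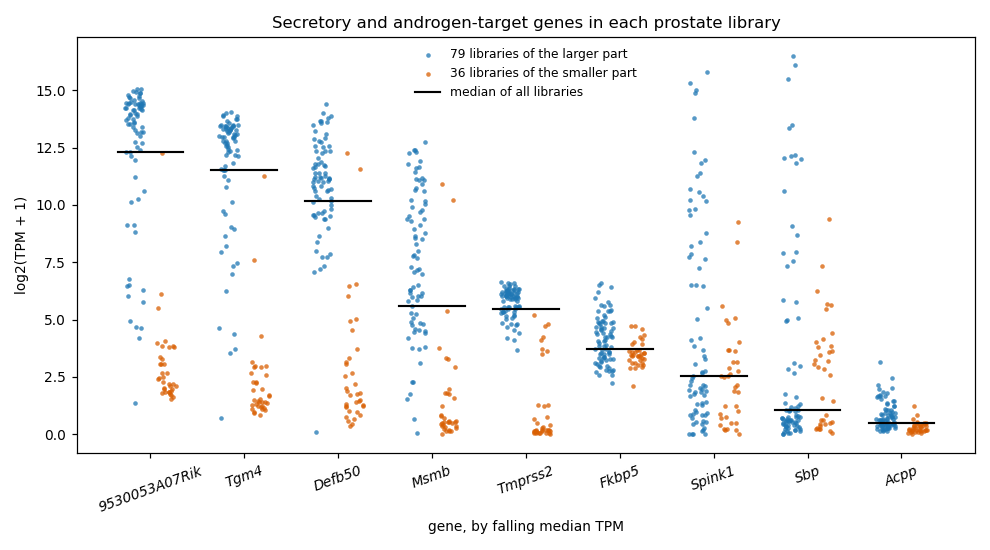
Levels of the 9 members as log2(TPM + 1), with 1 point per library, by falling median. Blue points are the 79 libraries of the larger part, orange points the 36 of the smaller part, and black bars the medians of all libraries. Most members spread over their whole range within the larger part, Sbp and Spink1 reach the highest values of all, and Fkbp5 never falls below 3.31 TPM.

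Tgm4 encodes a prostate transglutaminase that cross-links seminal proteins and is known as a product of the dorsal and anterior lobes. It lies on chromosome 9 from 123034726 to 123067561 of GRCm38 on the plus strand, with 16 merged exons. Its level was 0.64 TPM in the lowest library, 2963 in the median and 16895 in the highest, and it reached 1000 TPM in 64 libraries. In the 79 libraries its values separated into 20 of 0.64 to 2469 TPM and 59 of 2901 to 16895 TPM. In the 36 libraries, 34 stayed at or under 18.7 TPM and the other two were at 195 and 2469 TPM. Tgm4 shares 830 exon bases with Zdhhc3 on the other strand, which had a median of 24.1 TPM, and whether the counting used strand is not given in the sources used here, so values of Tgm4 near that level are uncertain.

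9530053A07Rik lies on chromosome 7 from 28129466 to 28164811 on the plus strand, with 19 merged exons. It ranged from 1.58 to 33972 TPM, with a median above that of Tgm4. In the 79 libraries it separated into 19 of 1.58 to 3966 TPM and 60 of 4462 to 33972 TPM. In the 36, 35 libraries stayed at or under 67.98 TPM and the highest was at 4887 TPM. Its closest relative, Fcgbp, was 85.6% identical over 5913 bases and had a median of 25.8 TPM, so shared reads bear mainly on low values of 9530053A07Rik.

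Libraries with high Tgm4 were those with high 9530053A07Rik. Both were in the upper sub-part in 59 of 79 libraries and both in the lower in 19, and in 1 library Tgm4 was lower and 9530053A07Rik upper. Within the 59, Pearson's r was 0.957 and Spearman's rho 0.932, with r = 0.948 without the 2 libraries most distant from the Tgm4 median (two-sided permutation p of 1e-05 for both, the smallest that 100000 permutations can give). Within the 19, r was 0.918 and rho 0.953. Among the 36, r was 0.977 and rho 0.960, and r was 0.987 without the 2 farthest. Over all 79 libraries, a rise of 1 in log2 Tgm4 went with a rise of 1.12 ± 0.0261 (SE) in log2 9530053A07Rik (limma adjusted p = 4.31e-53 over all 14621 genes tested). Among 12505 autosomal protein-coding genes, 9530053A07Rik had the highest rho to Tgm4, and Tgm4 the highest to 9530053A07Rik (0.971 over the 79 libraries).

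Since these genes rose and fell together, their promoters are shown, from 250 bases before to 50 after the RefSeq start in GRCm38.p6, 5′ to 3′ on the gene's strand. They lie at chr9:123034491-123034790 and chr7:28129216-28129515, both on the plus strand. Capitals mark matches to the motifs searched on both strands, which were the androgen response element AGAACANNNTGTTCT, its half-site AGAACA, the forkhead motif TGTTTAC and the TATA box TATAAA. A full element would also count as 2 half-site matches, 1 on each strand.
Tgm4: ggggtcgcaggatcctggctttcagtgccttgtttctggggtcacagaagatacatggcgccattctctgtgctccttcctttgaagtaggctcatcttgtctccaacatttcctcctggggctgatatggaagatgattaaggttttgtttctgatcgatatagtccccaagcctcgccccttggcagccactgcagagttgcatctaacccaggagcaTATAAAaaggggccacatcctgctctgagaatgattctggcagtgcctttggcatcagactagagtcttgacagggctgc
9530053A07Rik: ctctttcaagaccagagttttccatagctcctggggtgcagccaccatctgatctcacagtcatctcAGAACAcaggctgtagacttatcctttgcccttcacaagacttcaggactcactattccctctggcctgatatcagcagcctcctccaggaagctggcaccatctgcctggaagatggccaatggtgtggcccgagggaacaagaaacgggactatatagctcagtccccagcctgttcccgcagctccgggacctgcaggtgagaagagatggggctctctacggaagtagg
The capitals in Tgm4 are a TATA box that begins 30 bases before the start, and those in 9530053A07Rik a half-site that begins 183 bases before it. Of 32851 promoters of the same length, 13.6% held the TATA box, 18.97% the half-site, 3.65% the forkhead motif and 0.00913% the full element. The table held 8 promoters of 6 members, none with the full element or the forkhead motif. These windows say nothing of enhancers farther away, and a match is not a binding site.

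Tmprss2, a transmembrane serine protease of luminal cells whose transcription the androgen receptor raises, lies on chromosome 16 from 97564682 to 97611195 on the minus strand. Its lowest, median and highest levels were 0.01, 42.6 and 98.04 TPM. Its highest level in the 79 libraries exceeded its lowest by the smallest ratio of any member, from 11.7 to 98.04 TPM, and its values there separated weakly into 32 of 11.7 to 54.98 and 47 of 55.7 to 98.04 TPM. It separated in the 36 libraries into 28 of 0.01 to 1.44 TPM and 8 of 10.2 to 35.7 TPM. All 4 libraries of the smaller part with Chga under 10 TPM were among these 8. Tgm4 and Tmprss2 were both upper in 45 of the 79 libraries, both lower in 18, and discordant in 14 and 2. Within the 45, r was 0.490 and rho 0.522 (p = 0.00051 and 0.00021, two-sided permutation test), with r = 0.516 without the 2 farthest. The slope of log2 Tmprss2 on log2 Tgm4 was 0.168 ± 0.0167 over the 79 (limma adjusted p = 7.73e-14).

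Msmb, Defb50 and Fkbp5 rose with each other in the 79 libraries, where many other genes rose with them too. Msmb encodes a beta-microseminoprotein, an abundant secreted prostate protein, and lies on chromosome 14 from 32142023 to 32158370 on the plus strand. Its lowest, median and highest levels were 0, 47.4 and 6869 TPM, and it was listed at 0 in 1 library. Defb50 encodes a beta-defensin, a small antimicrobial peptide, on chromosome 8 from 21823539 to 21831296 on the plus strand. Its lowest, median and highest levels were 0.07, 1154.1 and 21514 TPM. Fkbp5 encodes an immunophilin that binds steroid receptor complexes, and both androgen and glucocorticoid receptors raise it. It lies on chromosome 17 from 28399094 to 28517527 on the minus strand and ranged from 3.31 to 96.7 TPM, with a median of 11.99 TPM. None of these 3 separated within the 79 libraries by the mixture rule. Defb50 was at 134 TPM or more in 78 of the 79, and the lowest library was at 0.07 TPM. In that library Tgm4, at 0.64 TPM, and 9530053A07Rik, at 1.58 TPM, were the lowest of all, and Acpp, at 7.98 TPM, was the highest.

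Msmb and Defb50 rose together in both parts. In the 79 libraries r was 0.835 and rho 0.852 (permutation p of 1e-05 for both), and r was 0.855 without the 2 libraries most distant from the Msmb median. Among the 36, r was 0.964, rho 0.830 and r without the 2 farthest 0.913. The slope of Defb50 on Msmb was 0.57 ± 0.0418 in the 79 (limma adjusted p = 1.42e-18) and 1.08 in the 36 (adjusted p = 1.13e-18). Defb50 had the second highest rho to Msmb among the 12505 genes, after the urothelial plaque gene Upk1a, at 0.859.

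Fkbp5 rose with Msmb (r = 0.755, rho = 0.766) and with Defb50 (r = 0.673, rho = 0.772) in the 79 libraries, each with a permutation p of 1e-05. The slopes on Msmb and Defb50 were 0.25 ± 0.0243 and 0.33 ± 0.0404 (limma adjusted p = 2.50e-13 and 6.55e-10). The relation was not called in the 36 libraries. There r between Msmb and Fkbp5 was 0.336 and turned to -0.079 without the 2 farthest, and r between Defb50 and Fkbp5 was 0.342 and fell to 0.0095 (adjusted p = 0.428 and 0.356).

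Tgm4 went in the opposite direction to Msmb, Defb50 and Fkbp5 where Tgm4 was high. Within the 59 libraries of the upper sub-part of Tgm4, r was -0.511 with Msmb, -0.459 with Defb50 and -0.554 with Fkbp5 (p = 5e-05, 3e-04 and 1e-05, permutation test). Without the 2 most distant from the Tgm4 median, r was -0.489, -0.451 and -0.627. 9530053A07Rik gave r of -0.508, -0.534 and -0.576 within its 60 upper libraries. Within the 20 lower libraries of Tgm4, r was 0.291 for Msmb, 0.556 for Defb50 and 0.214 for Fkbp5 (p = 0.214, 0.0132 and 0.365, permutation test). These values rested on few libraries, since without the 2 farthest r was -0.054, 0.267 and -0.019, and rho over the 20 was 0.059, 0.173 and 0.047. The slopes within the 59 were -2.12 ± 0.460 for Msmb, -1.07 ± 0.267 for Defb50 and -0.66 ± 0.128 for Fkbp5 (limma adjusted p = 2.76e-04, 0.00146 and 5.82e-05). Over all 79 libraries, Defb50 was not called on Tgm4, with a slope of -0.07 (adjusted p = 0.516). Without the library where Tgm4 and Defb50 were both at their lowest, the slope was -0.32 (adjusted p = 6.07e-05). In the 36 libraries, where Tgm4 was at or under 18.7 TPM in 34, these slopes were not called, at 0.43, 0.65 and 0.0054. There r was 0.340, 0.458 and 0.020, and without the 2 farthest 0.080, 0.089 and -0.147.

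**Figure D2:**
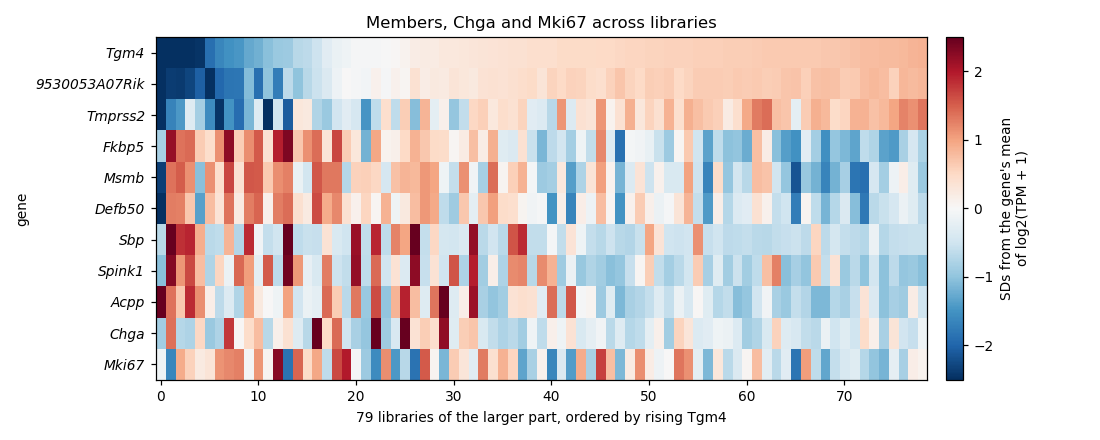
The 79 libraries of the larger part, 1 column each, ordered by rising Tgm4, and 1 row per gene, coloured by SDs from the gene's own mean of log2(TPM + 1). 9530053A07Rik and, less closely, Tmprss2 rise with Tgm4, while Fkbp5, Msmb and Defb50 are high in many but not all columns with low Tgm4. The first column, the library with the lowest Tgm4, also has the lowest Defb50.

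Sbp and Spink1 reached the highest single values of all members and were near 0 in many libraries. Sbp encodes the spermine-binding protein, a secretory product of the ventral prostate that depends on androgen, and lies on chromosome 17 from 23941672 to 23945607 on the plus strand. The lowest, median and highest levels were 0, 1.08 and 92090 TPM, and 54 libraries were under 1 TPM. In the 79 libraries it separated into 53 of 0 to 2.32 TPM and 26 of 5.37 to 92090 TPM. In the 36 it separated into 13 of 0.04 to 0.53 TPM and 23 of 0.81 to 676 TPM. Sbpl, a related gene, was 88.1% identical over 833 bases, reached 13181 TPM and had the highest rho to Sbp (0.803), so reads may have been split between them.

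Spink1 encodes a secreted trypsin inhibitor, known from the pancreas and from male accessory glands, seminal vesicle among them. It lies on chromosome 18 from 43728082 to 43737557 on the minus strand. The lowest, median and highest levels were 0, 4.75 and 57154 TPM, and it was listed at 0 in 5 libraries. In the 79 libraries it separated into 48 of 0 to 16.3 TPM and 31 of 17.2 to 57154 TPM. The 6 exocrine pancreas markers summed to 6.79 TPM at most.

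High Sbp went mostly with high Spink1. Both were upper in 20 of the 79 libraries and both lower in 42, while Spink1 alone was upper in 11 and Sbp alone in 6. Within the 20 libraries, r was 0.795 and rho 0.800 (p = 8e-05 and 6e-05, permutation test), and r was 0.915 without the 2 farthest. There the slope of Spink1 on Sbp was 0.69 (limma adjusted p = 0.0104). Within the 42 libraries with both low, r was 0.317 and the slope was not called (adjusted p = 0.167). Over all 79 the slope was 0.73 ± 0.0742 (adjusted p = 1.70e-12), and over the 36 it was 0.90 (adjusted p = 6.05e-18). Sbp separates in both parts, so both slopes span its sub-parts, and in the 36 none was fitted within them. The 6 libraries with mouse number 5000 and the next 5 numbers, which held the 3 highest Sbp values, ranged from 7.61 to 92090 TPM of Sbp and 16.3 to 57154 TPM of Spink1. Without them the slope over the 79 was 0.68 (adjusted p = 1.12e-07). In sample order these 6 lie between W4362 and W1103. All other libraries of that run were of the smaller part, with Sbp of 5.01 to 50.7 TPM and Spink1 of 3.19 to 47.7 TPM. In most libraries of the smaller part outside the run, Sbp was under 1 TPM. The labels do not say what sample order marks, and its part in these levels was not tested.

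Seminal vesicle genes were set beside both. All 9 of them rose with Spink1 in the 79 libraries, with a median slope of 0.36 against -0.0068 over all genes, and 5.53% of all genes rose with it. Without the same 6 libraries it was also 9 of 9, with a median slope of 0.46. With Sbp, 0 of 9 passed in either direction (limma). Their part in the levels of Spink1 was not tested.

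RefSeq gives 3 promoters for Sbp, and the one shown holds the only match among them. It lies at chr17:23941668-23941967 on the plus strand, and the capitals mark a half-site on the other strand, which begins 64 bases before the start.
Sbp: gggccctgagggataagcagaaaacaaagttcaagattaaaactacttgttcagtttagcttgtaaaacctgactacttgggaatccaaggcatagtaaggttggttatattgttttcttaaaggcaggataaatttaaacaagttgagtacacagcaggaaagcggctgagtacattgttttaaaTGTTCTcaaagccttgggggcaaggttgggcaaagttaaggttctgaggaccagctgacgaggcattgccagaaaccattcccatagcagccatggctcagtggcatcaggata
Neither of the other two Sbp promoters held any of the 4 motifs, nor did those of Acpp, Tmprss2 and Fkbp5.

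Acpp encodes prostatic acid phosphatase, an abundant secreted enzyme of the human prostate, and lies on chromosome 9 from 104288251 to 104337748 on the minus strand. The lowest, median and highest levels were 0, 0.38 and 7.98 TPM, and 24 libraries reached 1 TPM. Within the 79 libraries its values separated into 54 of 0.11 to 0.91 TPM and 25 of 0.92 to 7.98 TPM, a boundary with hardly any gap. Its upper libraries were shared with Sbp in 19, and both were lower in 47. At these levels the log2(TPM + 1) scale compresses differences. As the gene the others were set against, 31.2% of all genes were called on it in the 79 libraries. Sbp (slope 4.24), Spink1 (3.03) and Fkbp5 (0.62) rose with Acpp. Tgm4 (-2.32), 9530053A07Rik (-2.33) and Tmprss2 (-0.44) fell, and Msmb and Defb50 were not called (limma, adjusted p from 3.20e-06 to 0.00494 for those called). These slopes include the library with the highest Acpp, which had the lowest Tgm4, 9530053A07Rik and Defb50. Without it the median slope of all genes went from -0.0037 to 0.072. Defb50 had a slope of -0.62 but a rho of 0.133. For the called members rho kept the sign of the slope, at 0.600, 0.424, 0.475, -0.515, -0.501 and -0.472 in the order named. Relations within the sub-parts of Acpp were not tested.

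**Figure D3:**
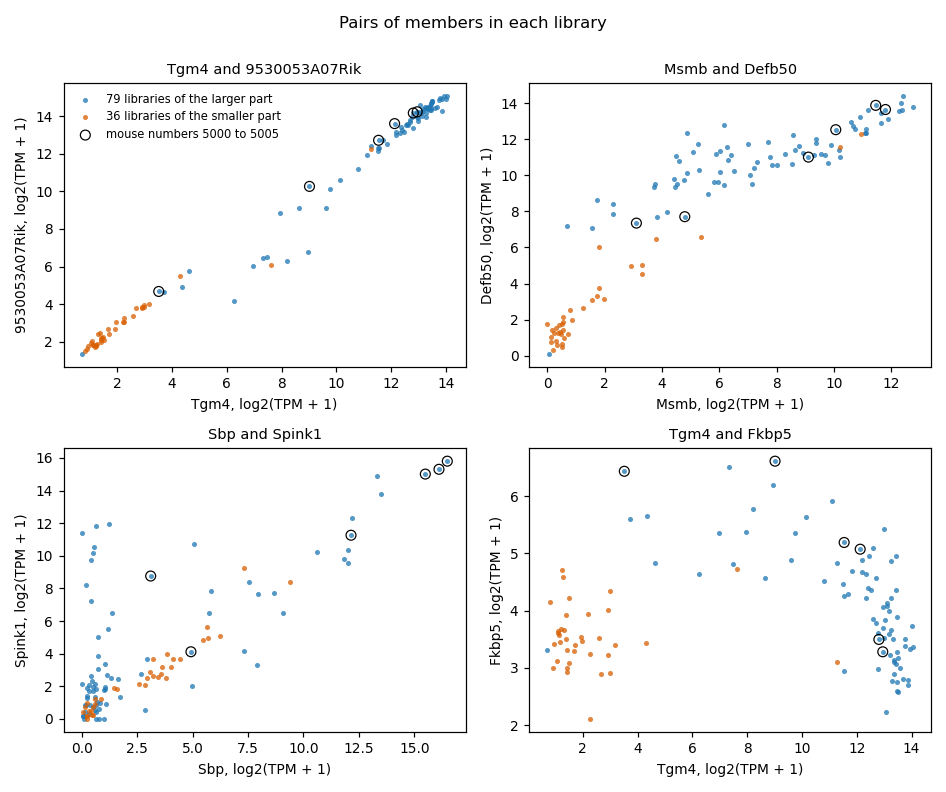
Values of 4 pairs of members in each library as log2(TPM + 1), with the 79 and 36 libraries in blue and orange and the 6 libraries with mouse number 5000 and the next 5 circled. Tgm4 and 9530053A07Rik lie near 1 line in most libraries of both parts, with some libraries of middle Tgm4 below it. Msmb and Defb50 rise together, Sbp and Spink1 share many of their highest libraries, and Fkbp5 is lower in the libraries with the highest Tgm4.

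Of the 28 pairs of the 8 members tested, 23 were called in the 79 libraries (limma, each p adjusted over all genes tested on the earlier member of the pair). On Tgm4, 6 of 7 pairs were called, 2 higher and 4 lower, where 39% of all genes were called, 12.2% higher and 26.7% lower. That background rested in part on the library with the lowest Tgm4, without which the genes that fell went from 3911 to 6861 on Tgm4 and from 4885 to 7780 on 9530053A07Rik, and 26 of 28 pairs were called. The count was 5 of 6 on 9530053A07Rik (43.6% of all genes), 4 of 5 on Sbp (21.4%) and 4 of 4 on Msmb (56.9%). It was 2 of 3 on Spink1 (23.7%), 1 of 2 on Defb50 (65.7%) and 1 of 1 on Tmprss2 (43.9%). Calls were thus frequent among all genes, and the share of members called is no result on its own. With median-of-ratios scaling 26 pairs were called, while the genes that rose went from 1787 of 5698 called to 4252 of 8425 on Tgm4, from 1497 of 6382 to 4186 of 8404 on 9530053A07Rik, from 809 of 3469 to 2245 of 6047 on Spink1 and from 4862 of 6418 to 5178 of 9971 on Tmprss2. Within the larger sub-parts of members that separate, 15 of 28 were called. Only 3 were called in the 36 libraries, which were Tgm4 with 9530053A07Rik, Msmb with Defb50 and Sbp with Spink1, against 2.74%, 2.58% and 0.0137% of all genes on Tgm4, Msmb and Sbp. The slope of Spink1 on Sbp there spans both sub-parts of Sbp. Pearson's r was computed for 98 relations of 44 gene pairs in the larger part and 27 in the smaller part, counting those with Chga and Mki67.

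**Figure D4:**
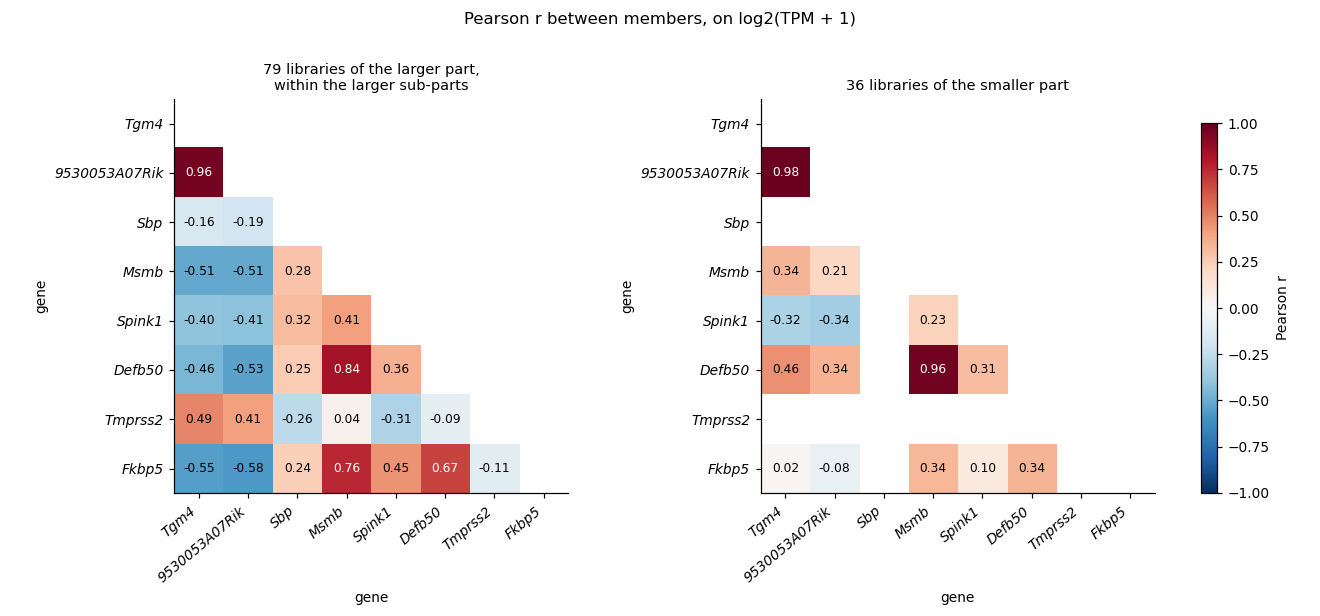
Pearson r between members on log2(TPM + 1), left in the 79 libraries within the larger sub-part of each member that separates there, right in the 36 libraries, with Sbp and Tmprss2 blank where they separate. Tgm4 with 9530053A07Rik and Msmb with Defb50 are at 0.835 or above in both panels, and the negative values of Tgm4 with Msmb, Defb50 and Fkbp5 are seen on the left only.

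The second question was how the members stand to Chga, the neuroendocrine marker. Chga was at 10 TPM or more in 32 libraries, all in the smaller part, a limit chosen after the values were seen. Among these 32, Tgm4, 9530053A07Rik and Tmprss2 reached their own median over all libraries in 0. Msmb and Defb50 did so in 2, Acpp in 6, Fkbp5 in 8, Spink1 in 17 and Sbp in 22. In the 83 libraries with lower Chga, the counts were 58 for Tgm4, 9530053A07Rik and Tmprss2, 56 for Msmb and Defb50 and 53 for Acpp. They were 50 for Fkbp5, 41 for Spink1 and 36 for Sbp. Spink1 thus reached its median about as often as not on both sides. Sbp did so more often in the 32, though its median was only 1.08 TPM. Many of those were smaller-part libraries of the run from W4362 to W1103, all with Sbp at 5.01 TPM or more. The part of that run in the count was not tested. In the 32, Sbp and Spink1 stayed at or under 676 and 614 TPM. The highest Tgm4 among the 32 was 2469 TPM and the highest Defb50 4984 TPM. These counts rest on the same separation of libraries as the component above and were not tested.

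Within the 79 libraries Chga itself separated into 72 of 0.06 to 0.81 TPM and 7 of 1.19 to 4.84 TPM. In the 72, 0 of 8 members were called (limma), and 0 had an unadjusted p under 0.05, where 127 of 14618 genes, 0.869%, were called and all of them rose. Chga was under 1 TPM in all of the 72. With median-of-ratios scaling 285 genes rose and 579 fell, the median slope of all genes went from 0.24 to 0.0012, and 0 of 8 members were called. The slopes ran from 0.0453 for Tmprss2 to 3.67 for Sbp, with standard errors of 0.344 and 2.33. Among the lists, 3 of 7 other neuroendocrine genes rose with Chga, led by Snap25 (2.15) and Scg2 (1.36), and none of the other lists had a called gene, though with median-of-ratios scaling 5 of 8 proliferation genes fell and 1 urothelial and 1 pancreas gene rose. Over all 79 libraries, across both sub-parts of Chga, 2738 of 14621 genes rose with Chga and 20 fell. There, 2 members not called in the 72 kept their direction and were called (limma). Tmprss2 fell with Chga in the 36 libraries, with a slope of -0.58 (adjusted p = 1.76e-04), and 24.2% of all genes fell with it. Tmprss2 separates there and the 4 libraries with Chga under 10 TPM are all in its upper sub-part, so the slope spans both sub-parts, and rho was -0.264. There the other 7 members were not called, and r lay between -0.034 for 9530053A07Rik and 0.316 for Spink1 among those that do not separate.

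The third question was how they stand to Mki67. In the 79 libraries, Defb50, Msmb and Fkbp5 rose with Mki67 and Sbp and 9530053A07Rik fell. The slopes were 0.90 ± 0.209 for Defb50, 0.85 ± 0.328 for Msmb, 0.41 ± 0.103 for Fkbp5, -1.44 ± 0.475 for Sbp and -0.87 ± 0.337 for 9530053A07Rik (limma adjusted p = 1.01e-04, 0.0160, 3.08e-04, 0.00518 and 0.0172). Tgm4 at -0.53, Spink1 at -0.87 and Tmprss2 at 0.0076 were not called. Against these 3 of 8 that rose and 2 of 8 that fell, 74.3% of all genes were called, with 72.9% of all higher and 1.44% lower, and the median slope over all genes was 0.18. With median-of-ratios scaling the median slope of all genes was -0.0063, and 3221 genes rose and 2918 fell in place of 10660 and 210. Defb50, Msmb and Fkbp5 then had slopes of 0.57, 0.42 and 0.13 and were not called, while Sbp at -2.18 and 9530053A07Rik at -1.06 still were.

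The fall of Sbp with Mki67 rested on few libraries. The 6 libraries with mouse number 5000 and the next 5 had Mki67 at 0.39 to 0.93 TPM, and without them the slope was -0.42 (adjusted p = 0.42). Within the 26 libraries of the upper sub-part of Sbp, r with Mki67 was -0.298 (p = 0.137, permutation test). Without the same 6 libraries the slope of 9530053A07Rik was -1.26 (adjusted p = 0.00185), and Tgm4 was called, at -0.92 (adjusted p = 0.00906). Within the upper sub-parts, however, r with Mki67 was -0.014 for Tgm4 and -0.205 for 9530053A07Rik (p = 0.914 and 0.116, permutation test). Within the 31 libraries of the upper sub-part of Spink1, r with Mki67 was -0.403 (p = 0.0249, permutation test) and the slope -1.22 was called (limma adjusted p = 0.0353), with r = -0.235 without the 2 farthest. For Defb50, r with Mki67 was 0.433 and rho 0.538 (p = 5e-05 and 1e-05, permutation test), with r = 0.415 without the 2 libraries most distant from the Mki67 median.

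In the 36 libraries, where Mki67 was at 20 TPM or more, 5 members fell with it. These were Defb50 (slope -2.14), Msmb (-1.81), Tgm4 (-1.65), 9530053A07Rik (-1.51) and Tmprss2 (-1.37), with limma adjusted p from 0.00354 to 0.0129, and 21.6% of all genes fell there. The r were -0.476, -0.451, -0.517 and -0.493 for the first 4 (p = 0.00453, 0.00935, 0.00409 and 0.00761, permutation test), and Tmprss2 separates. Without the 2 libraries most distant from the Mki67 median, r was -0.343, -0.276, -0.511 and -0.513. Msmb and Defb50 were each at 1000 TPM or more in only 2 of the 36 libraries. For Msmb and Defb50 the direction was the opposite of that in the 79 libraries, and the difference itself was not tested. Mki67 was at 20 TPM or more in 38 libraries in all. There Tgm4 reached its median in 0, Tmprss2 and 9530053A07Rik in 1, Msmb in 3, Defb50 in 4 and Acpp in 8. Fkbp5 did so in 11, Spink1 in 17 and Sbp in 24. In the other 77 libraries the counts were 58, 57, 57, 55, 54, 51, 47, 41 and 34, in the same order.

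**Figure D5:**
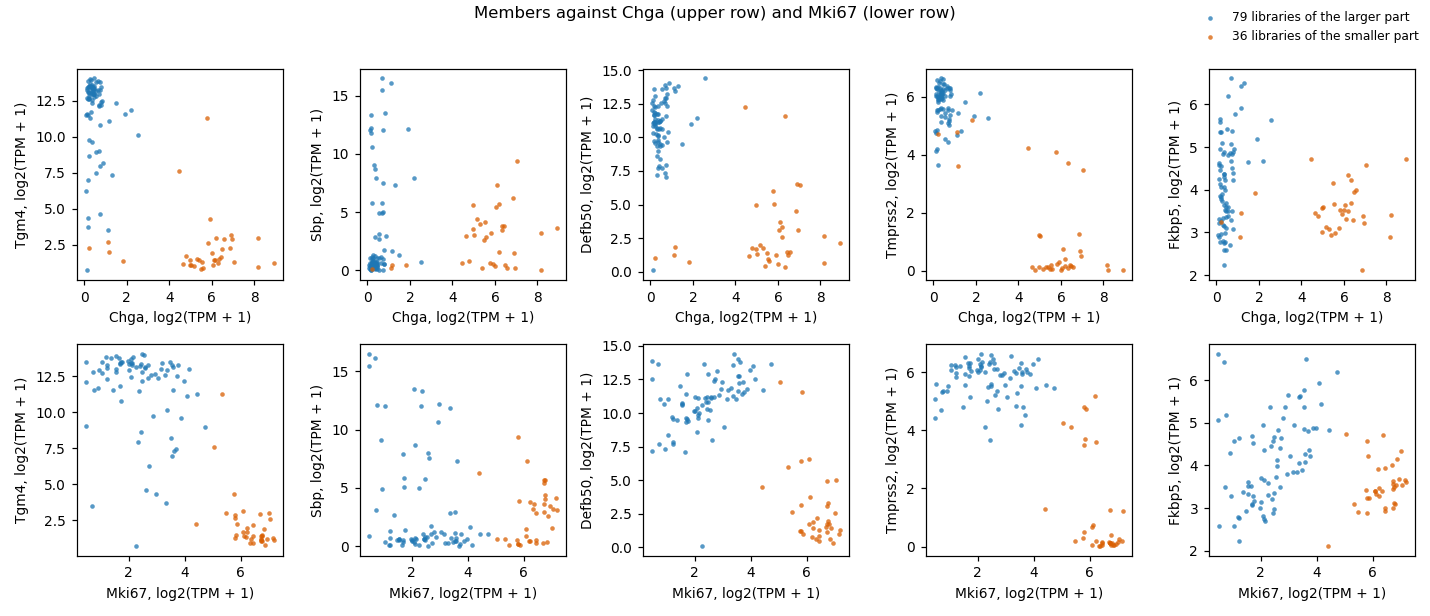
Tgm4, Sbp, Defb50, Tmprss2 and Fkbp5 against Chga in the upper row and Mki67 in the lower, all as log2(TPM + 1), with 1 point per library, blue for the 79 and orange for the 36. High Tgm4 and Tmprss2 lie at low Chga, Sbp is spread over the whole range of Chga, and Defb50 and Fkbp5 rise with Mki67 among the blue points.

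Other androgen-responsive genes gave no direction common to Mki67 and all members. Of 20 in a list that holds Acsl3, Sgk1 and Herc3 among others, 10 rose with Mki67 and 0 fell in the 79 libraries, with 4 and 5 under median-of-ratios scaling, against the 72.9% of all genes that rose with Mki67. The largest called slopes on Mki67 were those of Sgk1 (0.34) and Herc3 (0.34). With Tgm4, 4 of 20 rose and 8 fell, where 12.2% of all genes rose and 26.7% fell. With Fkbp5 12 rose and 3 fell (10 and 4 with median-of-ratios scaling), where 70.9% of all genes rose. With Msmb 13 rose and 1 fell (6 and 3 with that scaling), where 54.6% of all genes rose. With Defb50 11 rose and 2 fell (5 and 2), where 64.4% of all genes rose. Acsl3, an acyl-CoA synthetase, rose with Tgm4 with a slope of 0.30 ± 0.0216 (limma adjusted p = 2.38e-20), and it was chosen after its slope was seen. Among 13 other luminal and secretory genes tested, 8 rose with Mki67 and 0 fell, led by Clu (1.15) and Psca (0.91), with 6 and 2 under median-of-ratios scaling.

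Markers of other cell types were called on some members and on Mki67, as were many of all genes. All 4 urothelial genes rose with Msmb, 3 of 4 with Defb50 and 3 of 4 with Fkbp5, where 54.6%, 64.4% and 70.9% of all genes rose. With median-of-ratios scaling it was 2, 3 and 3 of 4, while the genes that rose and fell went from 7978 and 339 to 2250 and 3356 on Msmb, from 9420 and 189 to 1735 and 1894 on Defb50 and from 10371 and 593 to 4029 and 4813 on Fkbp5, whose median slope went from 0.16 to 0.00056. Their sum lay between 0.09 and 348 TPM over all libraries, with a median of 65.3 TPM. Of 8 neuroendocrine genes, 6 rose with Msmb, 4 with Defb50 and 6 with Fkbp5, and 0 fell. With median-of-ratios scaling 3, 2 and 5 of them rose and 0 fell. All 4 immune genes tested fell with Tgm4, and of 6 stromal genes 3 fell and 1 rose (3 and 3 with median-of-ratios scaling). Of all genes, 26.7% fell with Tgm4 and 12.2% rose. The immune genes summed to 15.01 to 1254.1 TPM. With Mki67, 72.9% of all genes rose. So did 7 of 7 other proliferation genes, led by Cdk1 (1.06) and Top2a (0.99), and 4 of 4 immune genes, led by Cd74 (0.62) and C1qa (0.56). Of the stromal genes 5 of 6 rose, near the share of all genes, led by Col3a1 (0.30) and Vim (0.28). Of the urothelial genes, Upk1b (0.52) rose with Mki67, of the basal genes Krt14 (0.27), of the neuroendocrine genes Ncam1 (0.25) and of the liver genes Ttr (0.66). With median-of-ratios scaling, proliferation and immune genes still rose with Mki67 in 7 of 7 and 4 of 4, while of the stromal genes 0 of 6 were called, and 3 basal, 2 neuroendocrine, 1 urothelial and 1 pancreas gene fell. No seminal vesicle gene of 9 was called on Mki67 or Tgm4. With Tmprss2, 5 of 9 fell, where 10.6% of all genes did (2 with median-of-ratios scaling, 6 without the 6 libraries with mouse number 5000 and the next 5), and with Acpp 2 of 9 rose, where 17.4% of all genes did. What share these cells had in the members' relations was not tested.

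The genes most like each member, by Spearman's rho over the 79 libraries among autosomal protein-coding genes, were the following, given as a description. After 9530053A07Rik, Tgm4 was closest to Acsl3 (0.968) and Man1a (0.967), a mannosidase of the Golgi, and 9530053A07Rik after Tgm4 to C1s2 (0.963) and Man1a (0.960). Msmb was closest to Upk1a (0.859), Defb50 (0.852) and Agtr1a (0.834), and Defb50 to Agtr1a (0.934), Krt4 (0.876) and Timp4 (0.867). Fkbp5 was closest to Ccbe1 (0.947), Tmem139 (0.926) and Ctdspl (0.924). Tmprss2 was closest to Akr1b3 (0.891), Tm9sf3 (0.878) and Tsta3 (0.869). For Sbp the closest genes after Sbpl were 5430419D17Rik (0.699) and Mug1 (0.696). Spink1 followed Atp2c2 (0.695), 5430419D17Rik (0.626) and the calcium channel gene Trpv6 (0.608). Acpp had Zfp467 (0.796), Bcl11a (0.794) and Grik2 (0.793) nearest. The members farthest from each other were Fkbp5 and 9530053A07Rik, with rho of -0.747. All libraries share a scaling by TPM and a common set of abundant transcripts, so these values are not independent of library composition.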

How the data were processed

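RNA-seq of prostate tissue from (TRAMP x WSB/EiJ) F2 mice was analysed, with 115 libraries in 1 group. This exceeds the number of sequenced prostates that the study gives without naming them, so every library was used and each was taken as a separate mouse, as labelled. RNA was depleted of ribosomal RNA. The authors trimmed the reads with Trimmomatic, mapped them with Bowtie2 to a diploid, allele-specific transcriptome built with Seqnature from C57BL/6 and WSB sequence, and quantified genes with RSEM. The submitters' processing notes name CASAVA 1.8.2, Bowtie2 2.2.5, RSEM 1.2.20 and the build GRCm38. The authors deposited TPM, which keeps no depth, so no count model or interval was used and the reads behind a value cannot be recovered from it. The annotation release is not given in the sources used here.

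The members and the marker lists were chosen with earlier results of these data known. Names, positions and exons came from GENCODE M21, which held 45136 of 45699 genes, and promoters from RefSeq. Values were log2(TPM + 1), for genes averaging 1 TPM or more. Libraries, or a gene's values, were called separate where 2 normal distributions fitted better than 1 by a BIC difference of over 10, with Ashman D above 2 and no fewer than 6 libraries in either. Slopes of all genes on each member, Chga or Mki67 were fitted with limma 3.58.1 in R 4.3.3, with the trend option, and adjusted by the Benjamini-Hochberg method at 0.05. Correlations (Pearson's r, Spearman's rho) were each tested two-sided by 100000 permutations, and no r was pooled over separate sub-parts. p-values measure the spread between mice of 1 cross. The limma fit on Mki67 was tested on simulated data with independent noise in each gene, which lack the shared composition of these libraries. Other software was scipy 1.17.1, numpy 2.4.6, scikit-learn 1.9.0, pandas 2.3.3 and matplotlib 3.10.9 under Python 3.11.15, and BLAST+ 2.17.0. Copies were sought at 95% identity over 80% of a transcript, and no member had one. The genes named are the members, Chga and Mki67, the 3 genes nearest each member, the 2 listed genes with the largest called slope on Chga and Mki67, and genes overlapping or resembling a member. The median-of-ratios scaling, rescaling without the 20 largest genes, a pseudocount of 0.1, no filter, ranks, the smaller part, the part as a covariate and leaving out the library of W78022, whose label is nearly that of W7822, were alternatives. Sub-parts, mouse numbers, the library with the lowest Defb50 and the 4 libraries with low Chga were taken up after the data were seen. X-linked probasin was not used here. The values of 1 listed gene are not reported here.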

Additional observations from a re-analysis of the deposited data

How the results depend on the processing

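No paired analysis was possible because there is only 1 group, so no replicate numbers are shared. Genes called on Chga numbered 127, and 2758 over all 79 libraries, 4927 over all libraries with the part as a covariate, 4986 in the 36, 864 with median-of-ratios scaling, 276 without the filter and 194 on TPM rescaled without the 20 largest genes. Genes called on Mki67 numbered 10870, and 6560, 6139 and 6089 in the 36, with median-of-ratios scaling and after that rescaling. Pairs of members called fell from 23 to 3 in the 36 and 15 within sub-parts. The causes were not tested.

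Directions turned as follows. On Chga, the slopes of Tgm4, 9530053A07Rik and Tmprss2 were -0.58, -0.69 and -0.16 over all 79 libraries, -0.089, -0.11 and -0.54 with the part as a covariate, -0.027, -0.034 and -0.58 in the 36 and -0.014, -0.18 and -0.095 without the library with the lowest Defb50. Defb50 was at -0.12 with median-of-ratios scaling and, with mouse numbers of 4000 or over, at -0.33, where Tmprss2 was at -0.045. On Mki67, the 36 libraries gave Sbp 0.41, Spink1 0.21, Msmb -1.81, Defb50 -2.14 and Tmprss2 -1.37. Tmprss2 was at -0.19 with the part as a covariate, -0.18 with median-of-ratios scaling, -0.12 after rescaling, -0.021 on ranks and -0.11 without the 6 libraries with mouse number 5000 and the next 5, where Spink1 was at 0.11. In the 36, Msmb, Defb50 and Fkbp5 were at 0.43, 0.65 and 0.0054 on Tgm4, Msmb and Defb50 at 0.28 and 0.51 on 9530053A07Rik, Tmprss2 at 0.26 on Msmb and 0.25 on Defb50, and Fkbp5 at 0.046 on Tmprss2. With the part as a covariate, Defb50 was at 0.058 on Tgm4, and Tmprss2 at 0.010 on Msmb and 0.094 on Defb50.

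Of the values under the other settings, 79 on Chga, 63 on Mki67 and 255 of pairs kept direction and side of the threshold, and 10 on Mki67 and 25 of pairs lost a call. A call was gained for 2 values on Chga, 4 on Mki67 and 17 of pairs. Of the 9 members, 8 were detected by 1 TPM in 50% of libraries and 9 at 0.1 TPM. TPM does not give the reads behind a value, so the counting error of values near 0 could not be stated.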
